A study of Mus musculus with 14 samples.

Results

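The 29 genes described here act in B cell receptor signalling or in the B cell functions that follow from it. They were taken by name, as every row of the deposited list of open chromatin peaks whose nearest gene is one of them. All 29 had at least 1 row, and together they held 388 of the 92842 peaks. The list names 19105 genes in all. The assay was ATAC-seq: the enzyme Tn5 inserts sequencing adapters where DNA is open.

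The cells were sorted by antibody staining from wild-type C57BL/6 mice aged 8 to 12 weeks. Bone marrow gave 6 types: MPP (multipotent progenitors), CLP and CMP (common lymphoid and common myeloid progenitors), MEP (megakaryocyte-erythroid), GMP (granulocyte-macrophage) and ProB (pro-B cells), while ProT (pro-T cells) came from thymus. Each of the 7 cell types had 2 libraries, 14 in all, and the labels do not say whether these came from separate animals. The values used here carry no cell type or library: they are the peaks of all 7 cell types merged into 1 list, so no cell types were compared, depth is unknown and there is no replicate error. A peak of the list was open in some of these cells, and which ones is not analysed here. Sorted identities could not be checked against markers.

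When antigen binds the B cell receptor, the Src-family kinases Lyn and Blk phosphorylate its signalling chains, and Syk and then Btk are recruited and activated. The adaptor Blnk gathers Btk, Vav proteins and the lipase Plcg2, whose products release calcium and activate Prkcb and Rasgrp3. Prkcb in turn acts through a complex that holds Bcl10 and Malt1 to switch on NF-kB, while calcium activates the factor Nfatc1. Pro-B cells do not yet carry this receptor, and several of these proteins also serve other blood cells.

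Of the 29 genes, 23 were found in a RefSeq table of promoter sequences (assembly GRCm38.p6, with the same primary sequence as mm10), which holds 32 promoters for them, each from 250 bases before to 50 after a transcription start site (TSS). A peak overlapped 25 of these 32 (78.1%), against 41.7% of all 32851 promoters of the table. The bases differ: the table is not limited to genes with a peak, while all 29 genes have one. The sequences below are those of promoters under a peak that carry the motifs discussed after them, and both promoters of Syk, which differ in base composition. They are printed 5' to 3' on the strand of the gene, with capitals for exact matches, on either strand, to GAGGAA (PU.1), CCGGAA (ETS factors), CCCNNGGG (EBF), CAGCTG (E proteins), ATGCAAAT (the octamer of Oct factors), TGGGAA (Ikaros), TGTGGT (Runx) or TATAAA (bound by TBP at core promoters).
Blnk (chr19:40994172-40994471, minus strand): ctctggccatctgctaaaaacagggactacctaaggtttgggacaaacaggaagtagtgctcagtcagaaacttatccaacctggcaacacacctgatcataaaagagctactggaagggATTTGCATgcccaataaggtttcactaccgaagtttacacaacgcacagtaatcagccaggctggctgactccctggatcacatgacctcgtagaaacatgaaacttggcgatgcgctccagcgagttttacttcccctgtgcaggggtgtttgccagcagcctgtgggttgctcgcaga
Prkcb (chr7:122288875-122289174, plus strand): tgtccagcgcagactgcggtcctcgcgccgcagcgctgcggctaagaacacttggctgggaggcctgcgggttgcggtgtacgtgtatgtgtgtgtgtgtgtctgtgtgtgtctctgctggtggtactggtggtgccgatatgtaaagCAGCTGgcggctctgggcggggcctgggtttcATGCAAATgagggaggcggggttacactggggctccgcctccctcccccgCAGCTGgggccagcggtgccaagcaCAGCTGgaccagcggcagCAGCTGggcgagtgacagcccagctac
Cnr2 (chr4:135894939-135895238, plus strand): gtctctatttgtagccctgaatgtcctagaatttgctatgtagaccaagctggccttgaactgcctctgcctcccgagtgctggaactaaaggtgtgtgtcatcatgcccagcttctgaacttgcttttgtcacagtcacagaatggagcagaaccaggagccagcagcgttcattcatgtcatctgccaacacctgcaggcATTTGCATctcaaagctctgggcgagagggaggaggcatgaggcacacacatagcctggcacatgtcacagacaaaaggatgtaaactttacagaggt
Btk (chrX:134583091-134583390, minus strand): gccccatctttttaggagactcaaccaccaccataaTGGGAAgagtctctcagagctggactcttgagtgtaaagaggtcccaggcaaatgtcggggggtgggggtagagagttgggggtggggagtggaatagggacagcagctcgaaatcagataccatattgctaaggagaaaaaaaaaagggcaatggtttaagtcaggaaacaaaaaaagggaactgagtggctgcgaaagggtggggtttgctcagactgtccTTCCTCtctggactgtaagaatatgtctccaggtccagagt
Vav1 (chr17:57278850-57279149, plus strand): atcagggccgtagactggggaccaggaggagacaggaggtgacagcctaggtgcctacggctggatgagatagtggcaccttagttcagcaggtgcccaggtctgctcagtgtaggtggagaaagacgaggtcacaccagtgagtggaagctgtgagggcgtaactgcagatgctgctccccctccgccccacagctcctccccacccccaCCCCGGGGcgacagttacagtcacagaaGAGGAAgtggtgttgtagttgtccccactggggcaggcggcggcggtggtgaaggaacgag
Syk, upstream promoter (chr13:52583187-52583486, plus strand): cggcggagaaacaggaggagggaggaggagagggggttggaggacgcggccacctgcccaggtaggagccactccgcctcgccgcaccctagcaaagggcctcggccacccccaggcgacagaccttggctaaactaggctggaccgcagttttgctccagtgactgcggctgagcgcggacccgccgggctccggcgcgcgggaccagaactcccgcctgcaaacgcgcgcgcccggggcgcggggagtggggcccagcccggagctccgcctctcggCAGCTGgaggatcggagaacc
Syk, inner promoter (chr13:52596632-52596931, plus strand): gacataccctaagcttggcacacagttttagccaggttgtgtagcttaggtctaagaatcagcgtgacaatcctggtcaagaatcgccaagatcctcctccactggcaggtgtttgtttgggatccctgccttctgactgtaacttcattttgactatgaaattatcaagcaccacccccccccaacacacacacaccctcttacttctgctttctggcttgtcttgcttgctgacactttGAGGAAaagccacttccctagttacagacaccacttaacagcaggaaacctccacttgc

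The octamer, bound by Oct factors and long known from immunoglobulin promoters, stood in 3 of the 25 promoters under a peak (12%, exact Clopper-Pearson 95% interval 2.55 to 31.2, counting error only), those of Blnk, Prkcb and Cnr2. It stood in 1.48% of the 13715 promoters of all genes under a peak and in 1.74% of all promoters of the table. By the TSSs of the RefSeq promoters, the match began 130 bases before that of Blnk, 70 before that of Prkcb and 48 before that of Cnr2. For Prkcb and Cnr2 the peak list gives the same TSS. For Blnk, on the minus strand, it gives one farther upstream, at 40994535 in place of 40994221. By that TSS the whole printed Blnk promoter, octamer included, lies downstream of the start. In the Prkcb promoter it lay between copies of CAGCTG, of which there were 4. The count of 3 is small, it was singled out after all 9 motifs had been counted, and a match of letters is no evidence of binding.

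For each of the other motifs, the exact interval around its share spanned the share among all promoters under a peak. GAGGAA was found in 8 of 25 (32%, against 27.2%), among them Btk, where its reverse complement begins 9 bases after the TSS, and Vav1, where it begins 11 bases before. TGGGAA was found in 6 (24%, against 22.6%), CCCNNGGG in 5 (20%, against 17.9%), CAGCTG in 4 (16%, against 15.4%), TGTGGT in 4 (16%, against 13.4%) and TATAAA in 3 (12%, against 6.62%). Matches to TATAAA, on either strand, began 33 bases before the TSS of Fcer2a and 121 before that of Rasgrp3. In Bank1 they began 236 and 234 bases before it. CCGGAA was found in 4 (16%, interval 4.54 to 36.1, against 27.2%). GGGCGG, the GC box of Sp1-type factors, which is not in capitals above, was found in 11 (44%, interval 24.4 to 65.1, against 62.7%). The 25 include overlapping promoters of Vav3 (TSSs at 109340683 and 109340761). These share matches to CCCNNGGG and GGGCGG, so Vav3 enters both counts more than once, and the intervals treat its promoters as separate. None of the 9 motifs contains another, although those named for ETS factors, PU.1 and Ikaros share their last bases and can overlap in part.

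The promoters under a peak had a median G+C content of 57.3% and 9 CpG dinucleotides per 300 bases, against 61% and 20 for all promoters under a peak. The range was wide. The Ralgps2 promoter held 52 CpGs at 80.0% G+C, and the Fcer2a promoter held 3 at 46.0%. In Syk the upstream promoter held 31 CpGs at 72.0% G+C and the inner promoter 2 at 48.0%.

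All 29 genes had a promoter peak, centred no more than 1 kb from a TSS, and all 29 had one within 500 bp. Among all genes with a peak, 68.0% had one within 1 kb, and among protein-coding genes with a peak 73.7% did. The peak nearest to the TSS was centred within 100 bp of it in 18 of the 29 genes, and the largest of these distances was 358 bp, in Xbp1. The list classed it as promoter-TSS in 23 genes, as 5' UTR in Blk, Lyn and Blnk, as intron in Plcg2 and Ralgps2, and as exon in Xbp1. For the limit of 100 bp, the share over all genes is not given here.

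Syk was 1 of 6 genes of the 29 with promoter peaks at 2 different listed TSSs. The others were Grb2, Rasgrp3, Ptpn6, Cnr2 and Nfatc1. Among all genes with a peak, 2.82% had this. The TSSs lay 29.6 kb apart in Rasgrp3, 16.5 kb in Cnr2, 13.45 kb in Syk, 9.06 kb in Grb2, 5.555 kb in Ptpn6 and 4.90 kb in Nfatc1. Genes with only 1 listed TSS could not show this, and how many TSSs the list could assign to each gene was not counted.

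The genes differed widely in how many peaks they held, from 3 to 35 (mean 13.4 ± 9.33, SD over 29 genes; median 10). All genes with a peak had a mean of 4.86 ± 5.33 (SD) and a median of 3. Of the 29 genes, 26 were above that median and the other 3, Btk, Ptpn6 and Fcer2a, were at it. In all, 16 held 10 or more peaks (55.2%), against 12.6% of all genes with a peak. Their median length was 61.8 kb, against 22.9 kb for protein-coding genes with a peak. Of the 3798 protein-coding genes between the lower and upper quartile of the members' lengths (35.5 to 107 kb), 17.1% held 10 or more peaks, as did 10 of the 15 members in that range, a comparison added after the values had been seen. The genes were named for this description with earlier results of these data known, and no test was made.

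**Figure D1:**
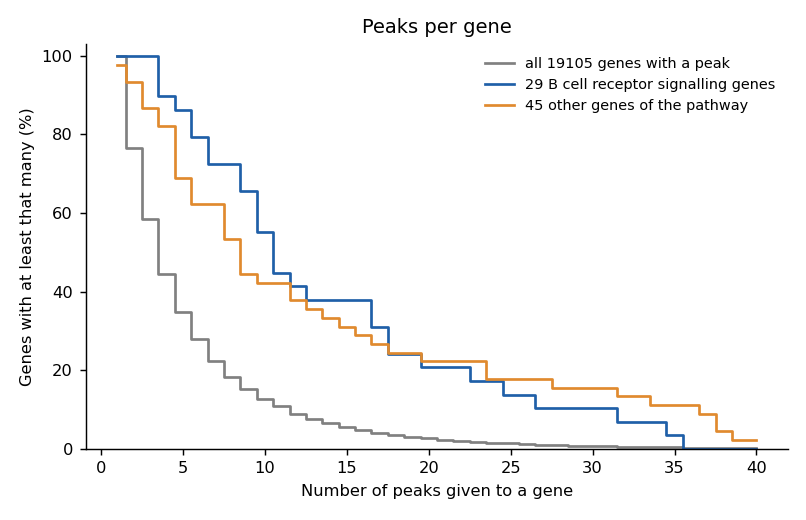
Share of genes (%) with at least a given number of peaks, for the 29 B cell receptor signalling genes (blue), 45 other genes of the pathway (orange) and all 19105 genes with a peak (grey). At 10 peaks the blue line is at 55.2% and the grey line at 12.6%.

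Among the kinases next to the receptor, Syk stood out. It held 16 peaks, Blk 10, Lyn 4 and Btk 3. The 16 Syk peaks (chromosome 13) included 11 in introns, 5 of them in intron 1 of either of its transcripts, and ran to 73.2 kb downstream of the nearest TSS. Blk (chromosome 14) had its nearest peak at 63416815 to 63417313, in the 5' UTR, 3 peaks in intron 1, 1 at the end of the gene and 2 just upstream, at -1.51 and -2.44 kb from the TSS, where negative distances are upstream. Btk, the kinase mutated in X-linked agammaglobulinaemia, had a peak centred at -1 bp from its TSS (chromosome X, 134582892 to 134583390) and 2 in introns 4 and 5 of 18.

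Lyn had fewer peaks by name than by position. All 4 of its peaks lay in the 5' UTR or intron 1, within 4.96 kb of the TSS. A further 5 peaks inside its span (chromosome 4, 3678068 to 3791612) were given to other names, 4 to 6330407A03Rik and 1 to Rps20. By position, Lyn held 9 peaks.

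The adaptors held 6 to 19 peaks. Dapp1, which binds the lipids made by phosphoinositide 3-kinase in activated B cells, had 19, Bank1, a scaffold that links Lyn to calcium release, 17, Blnk and Grb2 9 each, and Lat2, an adaptor of the membrane in B cells and mast cells, 6. Dapp1 lay in one of the densest stretches of the whole list. A window of 50 kb centred on the peak 23.5 kb downstream of its TSS (chromosome 3, 137957788 to 137958286) held 18 peaks, and only 48 of the 92842 peaks (0.0517%) had as many or more around them. The highest number anywhere was 20, and the median over all peaks was 5. Of the 17 peaks inside the Dapp1 span (137931007 to 137981549), 6 were given to Lamtor3, and 7 more of Dapp1's own ran from -35.5 to -9.93 kb. This window, and the runs of peaks below, were singled out after the values had been seen.

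Bank1 was spread out instead: its peaks reached 239.5 kb downstream of the TSS over a gene of 273 kb (chromosome 3), with 4.77 peaks per 100 kb of span, against 33.6 in Dapp1. Of its 17 peaks, 5 lay in interspersed repeats, 4 of them LINEs, and 1 of these in an L1 element of intron 1 was 1.16 kb from the TSS. Grb2, the adaptor that carries Sos1 in nearly all cells, had 4 peaks from -14.2 to -4.32 kb. The Lat2 peaks all lay within 8.39 kb of the TSS. Blnk had 4 intron peaks, all in introns 1, 2 and 4, and none in the last 34.4 kb of its span.

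**Figure D2:**
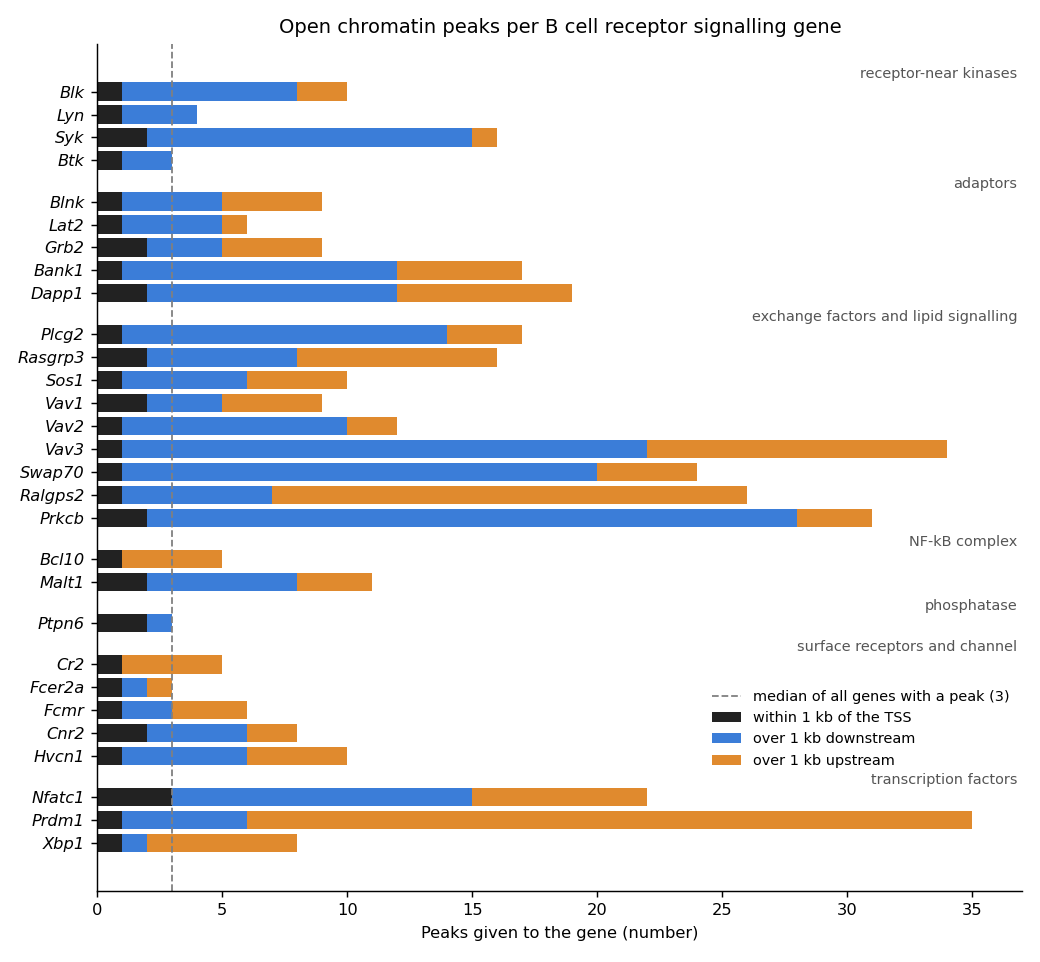
Number of peaks given to each of the 29 genes, by role, split into peaks within 1 kb of the TSS (black), over 1 kb downstream (blue) and over 1 kb upstream (orange). The dashed line is the median of all genes with a peak, 3. Prdm1 (35 peaks) and Ralgps2 (26) are mostly orange, and Prkcb (31) is mostly blue.

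The exchange factors and lipid signalling genes held 19.9 ± 9.21 peaks (SD, n = 9 genes), from 9 to 34. The kinases above held 8.25 ± 6.02 (SD, n = 4 genes) and the transcription factors below 21.7 ± 13.5 (SD, n = 3 genes). These numbers take no account of gene length. By position, the exchange factors held 5.16 (Ralgps2) to 17.8 (Swap70) peaks per 100 kb of span. The kinases held 7.93 (Lyn) to 19.6 (Syk) and the transcription factors 5.47 (Prdm1) to 37.4 (Xbp1), so the ranges overlapped. Vav3, like Vav1 and Vav2 an activator of Rac GTPases, had 34 peaks, Prkcb 31, Ralgps2, an activator of Ral GTPases, 26, and Swap70, a Rac activator of B cells, 24. Plcg2 had 17, Rasgrp3, which activates Ras, 16, Vav2 12, Sos1, another Ras activator, 10, and Vav1 9. By number of peaks Vav3 ranked 69 and Prkcb 102 among all 19105 genes. Both span 345 kb, and by position they held 6.08 and 7.82 peaks per 100 kb. The median of protein-coding genes with a peak was 7.01.

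In Prkcb and Plcg2 most peaks stood in a single intron. Intron 2 of 16 of Prkcb held 20 of its 31 peaks, over 125 kb from 1.90 to 126.5 kb downstream of the TSS (chromosome 7, 122290775 to 122415893). The last 164 kb of the Prkcb span, 47.4% of its length, held none. Intron 2 of 32 of Plcg2 held 11 of its 17 peaks (chromosome 8, 117512978 to 117548875), within 35.4 kb. Intron length was not used here, so whether these introns hold more than their share was not tested.

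The 3 Vav genes differed more in number of peaks than in peaks per length. Vav3 spans 345 kb, Vav2 165.5 kb and Vav1 50.1 kb, and by position they held 21, 18 and 5 peaks, or 6.08, 10.9 and 9.97 per 100 kb. Intron 1 of Vav3 held 11 peaks and intron 2 held 7. Vav1, the member restricted to blood cells, had all its peaks between -14.7 and 11.4 kb from the TSS, and the remaining 38.8 kb of the gene (77.35%) had none. In Vav2, 8 of the 18 peaks of the span were given to Sardh, and 12 peaks carried the name of Vav2.

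Ralgps2 and Swap70 had most of their peaks outside their RefSeq spans, 19 of 26 and 13 of 24. Others of the 29 genes did too, among them Prdm1 (30 of 35) and Malt1 (8 of 11). Of the 26 Ralgps2 peaks, 19 lay over 1 kb upstream, and 16 of them formed a run from -83.6 to -42.5 kb (chromosome 1, 156981889 to 157023438), with a median step of 2.36 kb between neighbours. A 50 kb window in this run held 17 peaks, a number met around 112 of all 92842 peaks (0.121%). The run overlaps the lncRNA gene Gm39685 in the RefSeq table and no protein-coding gene, and 13 peaks beyond it were given to Tex35. The last 97.8 kb of the Ralgps2 span (72.1%) held none. In Swap70, 7 of the 24 peaks lay 91.9 to 167 kb downstream, inside the neighbour Sbf2 (chromosome 7, 110313341 to 110389378).

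**Figure D3:**
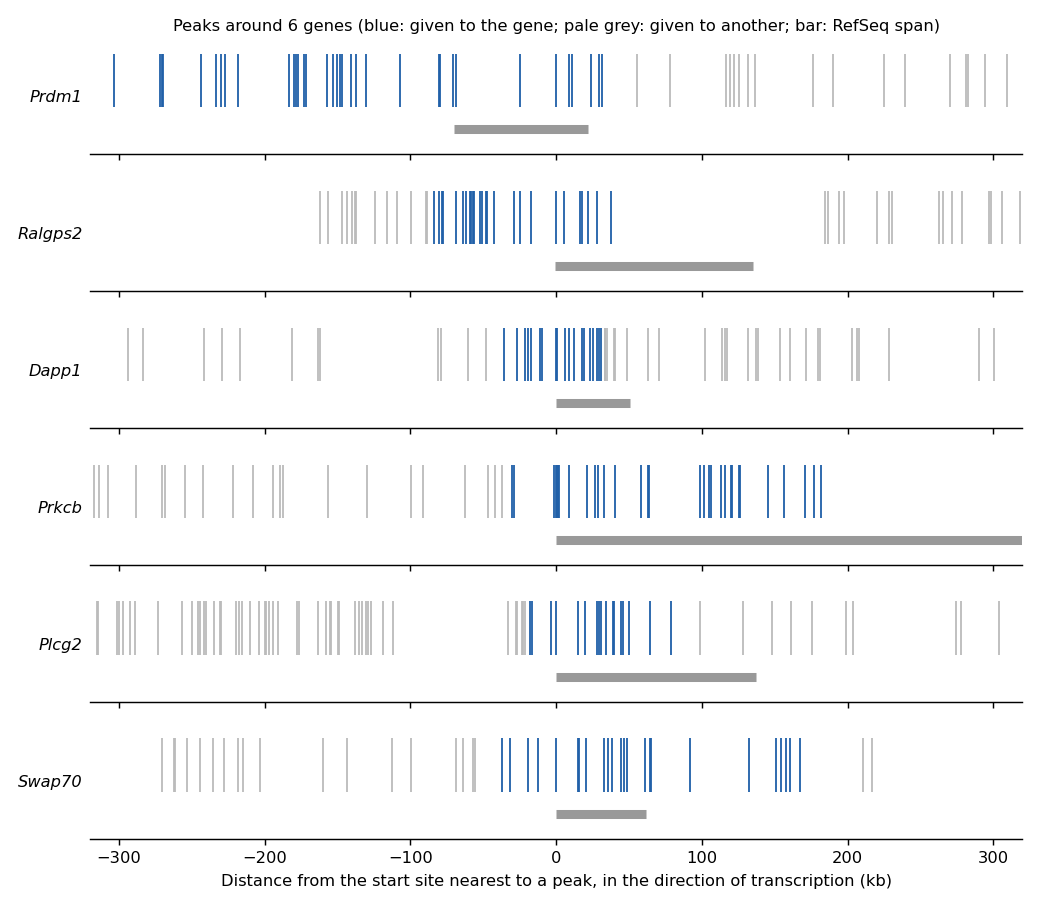
Peaks around 6 of the genes, as distance in kb from the start site that lies nearest to a peak, with transcription to the right. Blue ticks are peaks given to the gene, pale grey ticks are peaks given to another gene and bars are the RefSeq spans. The Ralgps2 run stands left of the gene, and Prkcb and Plcg2 ticks stand inside.

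Rasgrp3 likewise took 5 of its 16 peaks from introns of its neighbour Ltbp1, at -86.6 to -63.4 kb. A further 4 lay in intron 1 after its upstream promoter and 2 in intron 1 after the inner one. Sos1 had 3 peaks in intron 1 and 4 upstream, the farthest at -41.2 kb.

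The partners of the NF-kB complex differed. Bcl10 had 5 peaks, all at or upstream of its TSS (chromosome 3, nearest 145923978 to 145924476), 2 of them in introns of Ddah1 at -36.5 and -71.3 kb. Malt1, the protease of the complex, had 11 peaks, 2 of them within 1 kb of the TSS and 3 within its span. Of its peaks, 6 were classed as intron 3 of a transcript that the RefSeq table pairs with Mir466p on chromosome 2, while Malt1 lies on chromosome 18, so that class is unsafe. Over the whole list, 293 of 39021 intron peaks (0.751%) carried a transcript that the table places on another chromosome. Ptpn6, which encodes the phosphatase SHP-1 that restrains receptor signalling, had only 3 peaks, at its 2 TSSs (chromosome 6, 124732923 to 124733421 and 124738491 to 124738989) and 2.98 kb downstream. A further 2 peaks in its span were given to Mir200c.

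Surface proteins had 6.4 ± 2.70 peaks (SD, n = 5 genes), fewer on average than the 29 genes together (13.4) and more than all genes with a peak (4.86). Their genes are short, 13.9 to 40.1 kb, against a median of 61.8 kb for the 29. By position, peaks per 100 kb of span were 33.3 in Fcmr, 28.0 in Cnr2, 16.9 in Hvcn1, 7.20 in Fcer2a and 2.50 in Cr2. The median of the 29 genes was 10.8. Hvcn1, a proton channel of B cells, had 10, Cnr2, a cannabinoid receptor, 8, Fcmr, the receptor for IgM, 6, Cr2, the complement receptor CD21, 5 and Fcer2a, the IgE receptor CD23, 3. Cr2 and Fcer2a are known as markers of mature B cells, which were not among the sorted cells, and both had a peak at the promoter. In Cr2 it was centred 83 bp downstream of the TSS (chromosome 1, 195176383 to 195176881), and it was the only peak in the 40.1 kb of the gene. The other 4 Cr2 peaks lay at -8.29, -25.2, -56.1 and -132 kb, and no 50 kb window at Cr2 held more than 3 peaks, which 80.5% of all peaks reach. The Fcer2a promoter peak (chromosome 8, 3694012 to 3694510) lay at -87 bp. In Cnr2 all 8 peaks lay between -5.12 and 5.03 kb from a TSS, and in Hvcn1 5 peaks lay in introns 2 and 3 of 6.

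The 3 transcription factors held 35, 22 and 8 peaks. Prdm1, which encodes the plasma cell factor Blimp-1, ranked 61 of 19105 genes, with 32 of its 35 peaks classed as intergenic. A group of 28 formed an upstream run from -303.6 to -68.4 kb from the listed TSS (chromosome 10, 44526856 to 44762581). The RefSeq span of Prdm1 (44437174 to 44528558, minus strand) reaches past the listed TSS, and the peak of the run nearest to the gene lies inside it. Beyond the run, the next protein-coding gene, Prep, lies 305 kb away. Nfatc1 had 22 peaks, 6 of them in intron 2, 4 in intron 1 and 3 in intron 6 of 9. Another 5 lay in Atp9b, and 6 peaks of the Nfatc1 span were given to Gm2176. Xbp1, the factor of the unfolded protein response in plasma cells, had 8, of which 6 lay from -35.0 to -8.19 kb, beside a gene of 5.35 kb.

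Over all 388 peaks, introns held 54.9% (exact 95% interval 49.8 to 59.9), against 42.0% of all peaks, and intergenic sequence 34.3% (29.6 to 39.2), against 39.3%. Introns of the gene's own transcripts held 188 peaks (48.5%). That share over all peaks is not given here, and the 42.0% above counts introns of any gene. Introns numbered 1 held 73 peaks (18.8%, 15.1 to 23.1), against 14.8%. Promoter peaks as defined above were 40 of the 388 (10.3%, 7.47 to 13.8), against 16.2% of all peaks. The median distance to the TSS was 23.4 kb, against 18.2 kb, and 122 peaks (31.4%, 26.9 to 36.3) lay over 50 kb away, against 25.7%. Peaks over 1 kb downstream were 202 (52.1%, against 48.7% of all peaks) and those over 1 kb upstream 146 (37.6%, against 35.1%), so downstream peaks were the more frequent in both. In all, 18 genes had more downstream and 9 more upstream, Prdm1 and Ralgps2 among the latter, and this count over all genes is not given here. Peaks of 1 gene are not independent, so these intervals are too narrow.

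**Figure D4:**
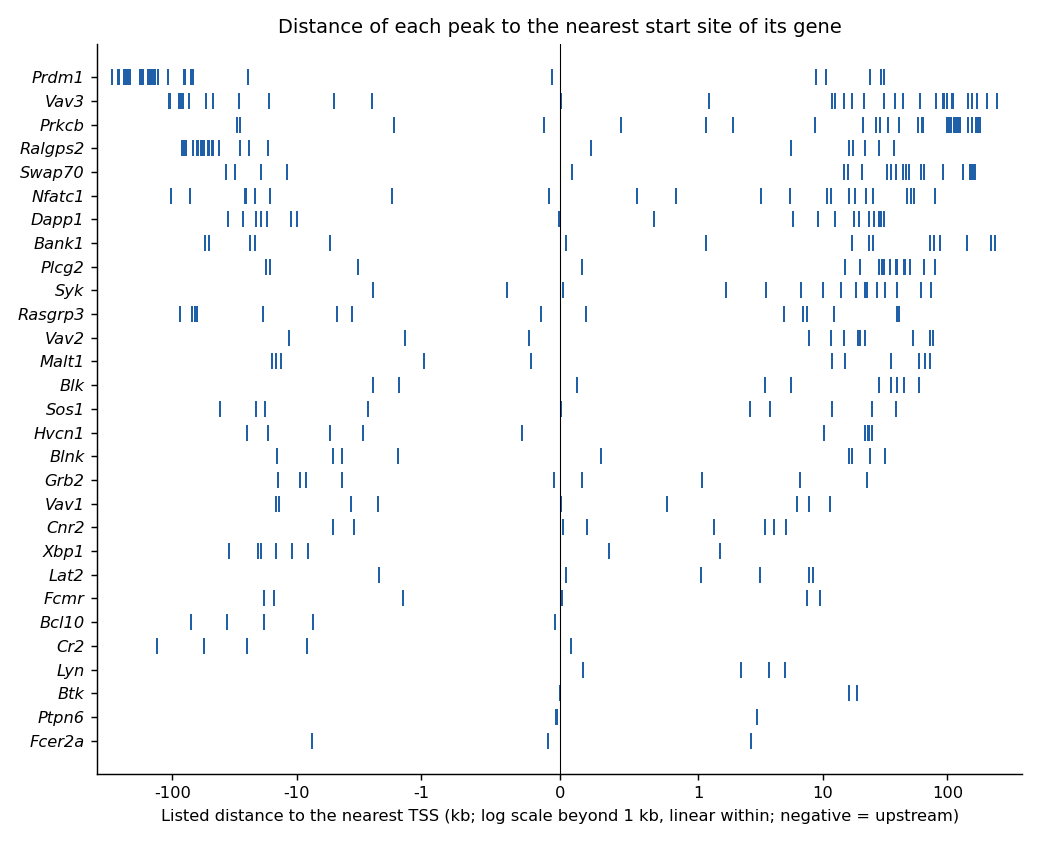
Listed distance in kb of each of the 388 peaks to the nearest TSS of its gene, 1 row per gene, ordered by number of peaks. The axis is linear within 1 kb and logarithmic beyond, and negative values are upstream. Each row has a tick within 500 bp of 0, and the farthest tick is that of Prdm1 at -304 kb.

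The peaks stood close together. The nearest other peak of the list was within 5 kb for 286 of the 388 (73.7%, 69.0 to 78.0), against 53.1% of all peaks, and the median gap between centres was 2.49 kb, against 4.50 kb. In Cr2, Fcer2a and Bcl10 no peak had a neighbour this near. In Lyn, Btk, Lat2, Vav1, Ptpn6, Fcmr and Cnr2 each peak had one.

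Interspersed repeats held 47 of the peaks (12.1%, 9.04 to 15.8), against 14.8% of all peaks. LTR elements held 17 (4.38%, against 6.60%), SINEs 15 (3.87%, against 4.15%) and LINEs 14 (3.61%, against 3.29%). The leading elements were MTD, ORR1E and B3A with 4 peaks each, MTD in Prkcb, Ralgps2 and Vav2, ORR1E in Plcg2, Prkcb and Vav3. Prkcb alone held 8 of the 47. ORR1E and MTD each held 1.03% of the genes' peaks (0.282 to 2.62), against 0.574% and 0.442% of all peaks, differences inside the counting interval. The share of B3A over all peaks is not given here.

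The assignment by nearest TSS moved peaks in both directions. Of the 388 peaks, 218 lay inside the RefSeq span of their gene and 170 outside it. Conversely, 40 of the 258 peaks inside the 29 spans (15.5%) were given to another gene, in 13 of the 29 genes. The same shares over all genes are not given here, so whether these genes differ from others in this was not tested. By position the median was 6 peaks per gene and 10.8 per 100 kb, against 2 and 7.01 for protein-coding genes with a peak.

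The genes' relatives on the T cell receptor side gave a comparison by family. Of 7 pairs, the B cell member had more peaks in 5 and the T cell partner in 2. Blk held 10 peaks and Lck 3, Syk 16 and Zap70 12, Plcg2 17 and Plcg1 13, Prkcb 31 and Prkcq 22, and Lat2 6 and Lat 1. Fewer peaks stood at Blnk (9) than at Lcp2 (16), and at Rasgrp3 (16) than at Rasgrp1 (25). Per 100 kb of span the order turned in 3 pairs: Prkcb had 7.82 and Prkcq 13.9, Plcg2 11.7 and Plcg1 18.0, and Rasgrp3 12.9 and Rasgrp1 12.7. All 7 T cell partners also had a promoter peak, as did 68.0% of all genes with a peak. Both T cell and B cell progenitors entered the list, and no test was made over the pairs.

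**Figure D5:**
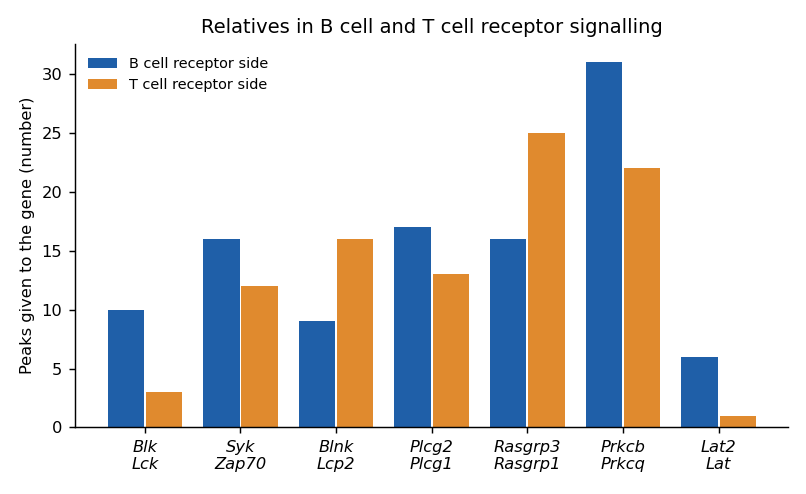
Number of peaks given to 7 genes of B cell receptor signalling (blue) and to their relatives in T cell receptor signalling (orange). Blue is higher in 5 pairs and orange in 2.

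The rest of the pathway was read from a list of 45 further genes. Of these, 44 had a peak, all 44 had a promoter peak, and 19 held 10 or more. Among all genes with a peak, 68.0% had a promoter peak (73.7% of the protein-coding ones) and 12.6% held 10 or more. The share of all genes that have any peak is not given here, and the 45 genes were not matched by length. Their mean was 13.2 ± 13.0 (SD, n = 45) and their median 8. The most peaks stood at Pik3r1, the regulatory subunit of phosphoinositide 3-kinase, with 57, Cblb, a ubiquitin ligase that dampens receptor signals, with 38, Foxo1, which that kinase pathway inhibits, and the kinase Map3k7 with 37 each, and the calcium channel Itpr2 with 36. Pirb, an inhibitory receptor, had none. The receptor's own signalling chains, chosen for mention after their values were seen, differed: Cd79a had 2 peaks and Cd79b 7, and their promoter peaks were centred at -65 and -46 bp.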

How the data were processed

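ATAC-seq was run on 14 libraries of 7 sorted cell types. The only values used are those of the authors' deposited list of 92842 merged peaks, each 499 bp wide. Per the file headers, annotatePeaks.pl annotated it against mm10. HOMER 4.10.2 is credited to the submitters' processing notes. Aligner, peak caller, threshold and merging: not given in the sources used here. Distances to the TSS are in bp, as deposited. The deposited score is 0 in every row and was not used. A peak is named by its closest TSS and may act on another gene.

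Rows were selected by gene name and counted with Python 3.11.15, pandas 2.3.3 and numpy 2.4.6, and plotted with matplotlib 3.10.9. A promoter peak has a listed distance of at most 1 kb. A peak counts by position where its centre lies in the RefSeq span (GRCm38.p6). TSSs were told apart by position. Shares have exact Clopper-Pearson 95% intervals from scipy 1.17.1, for counting error only. The counting was tested on simulated data. The 29 genes and all gene lists were chosen with earlier results of these data known. Named were all 29, their pair partners, genes that took 3 or more peaks inside a span, and, of 45 other pathway genes, the 5 with the most peaks and any with none. Other names were added after their values were seen. Some items that the rule names are not reported here. No test was made, since the list holds no libraries to compare.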

Additional observations from a re-analysis of the deposited data

How the results depend on the processing

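No paired analysis was possible because the list holds no values per library. For the same reason no library could be left out in turn, and no stricter peak threshold could be tried, since the score is 0 for every peak. All 29 genes kept a promoter peak at 500 bp (63.6% of all genes with a peak did), and 23 had one by the class promoter-TSS (52.3% of all genes). The total of 388 peaks fell to 258 by position in the gene spans and to 114 within 10 kb of the TSS, and the median of 10 to 6 and 4. With 20 peaks as the limit, 6 genes remained in place of 16, against 2.63% of all genes. Within 50 kb 11 genes held 10 or more, against 5.76%. The share in introns was 46.1% where a repeat takes the place of the intron, against 33.5% of all peaks, and 53.4% without the transcripts placed on another chromosome (both chosen after seeing the data). A neighbour stood within 2 kb for 39.4% of the peaks, against 27.9%, and within 10 kb for 87.1%, against 75.1%. The other settings, among them the counts without Prdm1, moved no share beyond its interval and no count by over 1.5 times. Without values per cell type, absence of a peak cannot be told from low depth.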
